A study of Neotoma stephensi and Rattus norvegicus with 6 samples.

Results

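The wider smooth muscle cell programme was taken as 45 genes that smooth muscle cells use beside their contractile proteins, and it was described in the proximal stomach of 3 Stephens' woodrats and 3 lab rats. The genes were chosen by symbol from what is known of smooth muscle, in 10 roles, and with earlier results of these data known. All 45 were found among the 15481 genes of the count files, and all 45 were among the 12603 genes with a level of 1 CPM or more (CPM being reads scaled to library size) in at least 3 of the 6 animals. Ryr2 was the 1 member that stayed under 1 CPM in every lab rat, so it entered the test through its woodrat values. RNA-seq was made on pieces of the fornix ventricularis, the nonglandular chamber of the foregut. The woodrats (Neotoma stephensi) were females caught in the wild. They were fed juniper, a natural food of theirs, during transport and for 1 evening, and were dissected the next day. The lab rats (Rattus norvegicus, Sprague Dawley strain) were virgin females bought from a supplier and kept for about 6 months on rodent chow. Species, diet, origin and time in captivity differed together in every animal and cannot be told apart. The reproductive history of wild-caught females was not known to the study. Each library came from 1 animal.

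Smooth muscle genes are switched on by serum response factor together with its coactivators of the myocardin family. Their products reach beyond myosin and actin: dense plaques and dense bodies anchor the filaments, plasma membrane channels and the sarcoplasmic reticulum control calcium, muscarinic receptors start contraction, and the nitric oxide pathway ends it through cyclic GMP (cGMP). Caveolae and the dystrophin complex tie the cell cortex to the matrix. In the stomach wall these cells make up the muscle layers that churn and move food.

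The libraries held between 5439642 and 7932637 assigned reads, and 3 reads were worth 0.355 to 0.586 CPM. Levels are given as CPM normalized by the trimmed mean of M values (TMM), always in the order woodrat 1, 2, 3 and then lab rat 1, 2, 3. Because these are read counts per gene with no correction for transcript length, levels were not compared between genes. The tissue was bulk, so more muscle cells and more RNA of a gene per muscle cell cannot be told apart. Summed CPM of 11 contractile genes found in the files ran from 52758 to 159684 in woodrats and from 16378.5 to 31308 in lab rats. Woodrat 1 had the most of this contractile RNA and the least summed CPM of 10 squamous epithelium markers, 6024 against 12037 in woodrat 2, 18066 in woodrat 3 and 10009.8 to 12523 in lab rats. In lab rat 3, Mylk and the epithelial genes Trp63 and Dsg3 stood at 0.389, 0.428 and 0.371 times the mean of the other lab rats, while Tpm2 and Krt14 stood at 2.26 and 1.78 times it. The counts of calls are therefore also given without these animals.

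Of the 45 members, 22 were more abundant in woodrats and 0 were more abundant in lab rats at a false discovery rate (FDR) below 0.01, by edgeR's quasi-likelihood test with Benjamini-Hochberg adjustment over the 12603 genes. Among all genes tested, 20.0% passed this threshold, 10.3% as higher and 9.71% as lower in woodrats. With all 6 animals, no member was lower in woodrats at an unadjusted p below 0.05 or by DESeq2 either. Without lab rat 3, 1 member, Itpr1, was lower at an unadjusted p below 0.05 (log2 fold change −0.58, FDR = 0.0970, edgeR). At an FDR below 0.05 the number higher was 35, where 21.0% of all genes passed. The fold change was positive for 44 members, against 51.0% of all genes, and Itpr1 was the exception. The median log2 fold change was 1.89 over the members and 0.030 over all genes. For 37 members every woodrat lay above every lab rat, which held for 28.8% of all genes, and for 8 members (Mkl2, Itga7, Csrp2, Pln, Atp2a2, Itpr1, Sgcd and Cryab) the species overlapped. The number of calls depended on which animal was present. It was 18 without woodrat 1, 9 without woodrat 2, 32 without woodrat 3, 7 without lab rat 1, 14 without lab rat 2 and 11 without lab rat 3, with 0 calls of lower abundance in each. The share of all genes called higher moved as well, to 7.81%, 3.48%, 10.8%, 3.12%, 3.81% and 5.09% in the same order. Of the 22 members, Cacna1c, Dmd, Mrvi1, Myocd, Palld and Ryr2 kept their call in all 6 of these fits. The fits kept the genes that had passed the filter with all 6 animals, which Ryr2 had passed through its woodrat values. Flnc, Gucy1a3 and Ldb3 passed in 1 of the 6, and Lmod1, Pdlim3, Ppp1r3c and Vcl in 2. Without woodrat 1 and without lab rat 3, respectively, the calls by role were 1 and 1 in transcriptional control, 5 and 2 in the filaments, 2 and 1 in adhesion, 1 and 0 in the LIM scaffolds, and 2 and 1 in the channels. They were 1 and 1 in the calcium store, 1 and 1 in the muscarinic receptors, 2 and 3 in the nitric oxide and cGMP role, 2 and 1 in the caveola and dystrophin role, and 1 and 0 in the small heat shock and glycogen role.

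**Figure D1:**
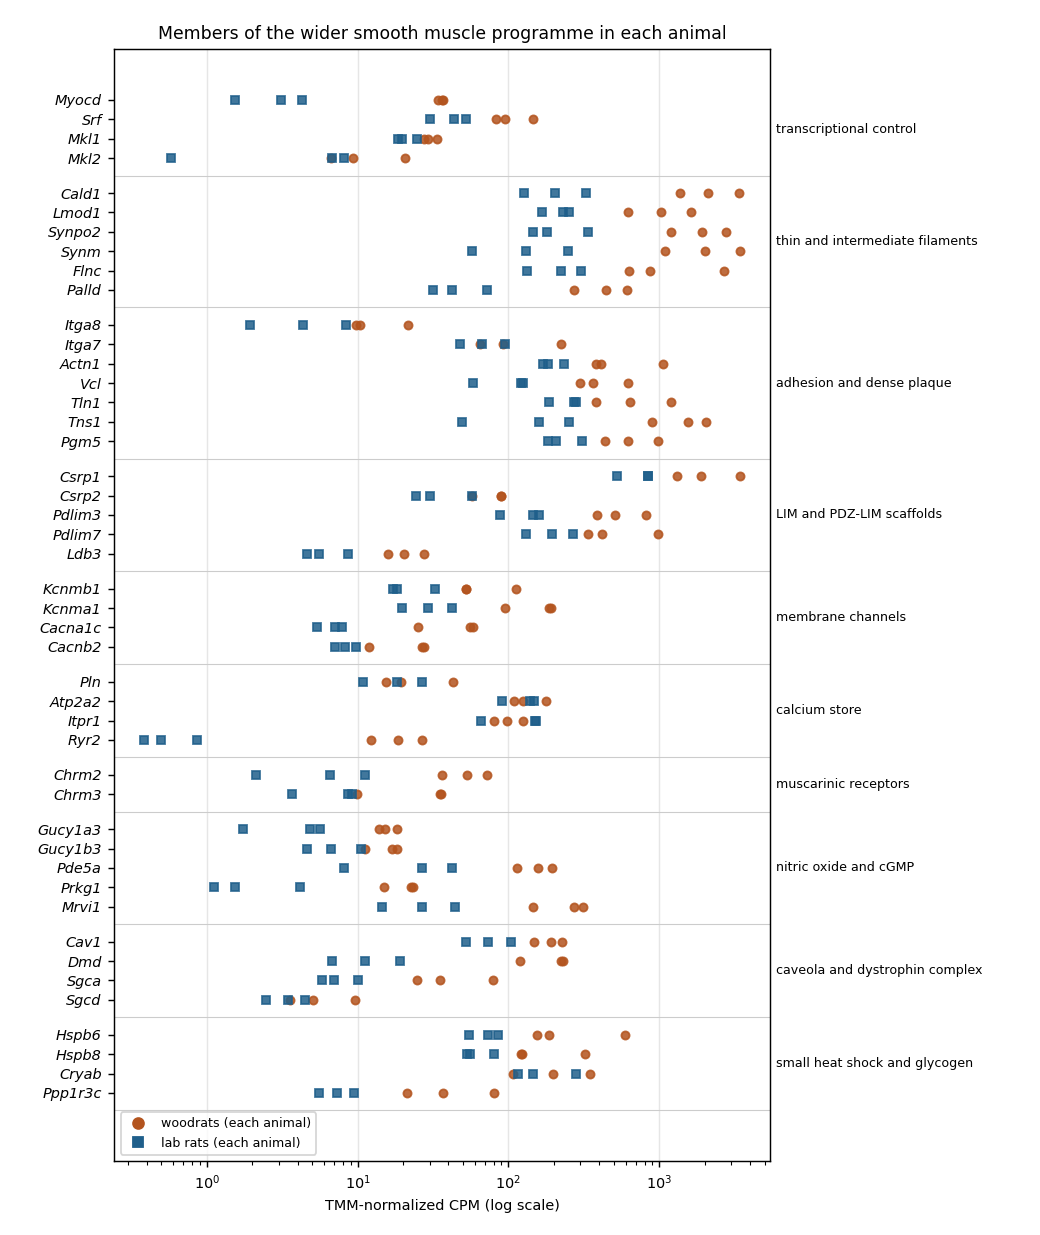
TMM-normalized CPM (log axis) of the 45 members, grouped by role, with a circle for each woodrat and a square for each lab rat. Circles and squares are separate in 37 members and overlap in 8, among them Pln, Atp2a2, Itpr1 and Cryab; the Myocd circles sit between 34.0 and 36.7 CPM and its squares between 1.54 and 4.30.

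Among the 4 genes of transcriptional control, Myocd was higher in woodrats and the other 3 did not pass the test. Myocd (ENSMUSG00000020542.17), the muscle-restricted coactivator myocardin, had 36.7, 36.1 and 34.0 CPM in the woodrats against 3.10, 4.30 and 1.54 CPM in the lab rats. The woodrats were nearly level and stood far above all lab rats, and Myocd was 11.8-fold higher (log2 fold change 3.56, SE 0.38, FDR = 0.000649, edgeR). Srf, the DNA-binding partner of myocardin, had 147, 95.1 and 82.6 CPM in the woodrats against 43.8, 52.8 and 30.2 CPM in the lab rats; its log2 fold change was 1.35 (SE 0.31), with an FDR of 0.0106 (edgeR), just outside the threshold. The widely expressed coactivator Mkl1, known as MRTF-A, differed less, with 33.4, 27.8 and 29.4 CPM against 24.8, 19.7 and 18.5 CPM (log2 fold change 0.52, SE 0.25, FDR = 0.1253, edgeR). Its relative Mkl2 had 6.64, 9.30 and 20.5 CPM against 8.19, 6.78 and 0.578 CPM. The low value in lab rat 3 rested on 3 reads, and the groups overlapped. Within this role, then, Myocd was the gene that passed, while for Srf and Mkl1 every woodrat also lay above every lab rat. The difference between Myocd and the other 3 genes was not tested.

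All 6 members linked to the thin and intermediate filaments were higher in woodrats, with a median log2 fold change of 3.16, and with 1 animal left out 1 to 6 of them passed. Synm (ENSMUSG00000030554.14), which encodes the intermediate filament protein synemin, had 3421, 2005 and 1091 CPM in the woodrats against 131, 249 and 57.4 CPM in the lab rats. It was 14.9-fold higher (log2 fold change 3.90, SE 0.65, FDR = 0.00297, edgeR), although the spread within each species was more than 3-fold. Cald1 (ENSMUSG00000029761.15), the actin-binding regulator caldesmon, had 3397, 2091 and 1375 CPM against 205, 326 and 128 CPM (log2 fold change 3.38, SE 0.51, FDR = 0.00197, edgeR). Palld, an actin cross-linker of dense regions, had 611, 443 and 272 CPM against 42.6, 72.4 and 31.6 CPM (3.18, SE 0.43, on the log2 scale, FDR = 0.00139, edgeR). In each of these genes the order among woodrats was the same, highest in woodrat 1 and lowest in woodrat 3. Synpo2, which encodes an actin-bundling protein of the same structures, followed with 2772, 1915 and 1189 CPM against 179.6, 337 and 145 CPM (log2 fold change 3.15, FDR = 0.00207, edgeR). Lmod1, a leiomodin that nucleates actin filaments in smooth muscle, had 1636, 1031 and 621 CPM against 168, 254 and 231 CPM (log2 fold change 2.33, FDR = 0.00351, edgeR). Flnc, the muscle filamin, had 2670.1, 875 and 634 CPM against 133, 225 and 304 CPM (log2 fold change 2.66, SE 0.60, FDR = 0.00932, edgeR). Woodrat 1 stood apart in Flnc, at 3.54 times the mean of the other woodrats. Without woodrat 1 the Flnc log2 fold change was 1.78 and no longer passed (FDR = 0.0109, edgeR), nor did it pass with a filter at 5 CPM (FDR = 0.0106, edgeR).

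Of the 7 adhesion and dense plaque genes 2 passed, Tns1 and Vcl. Tns1, which encodes tensin, a link between integrins and actin, had 1544, 2027 and 891 CPM in the woodrats against 159.8, 252 and 49.3 CPM in the lab rats. This was a 9.67-fold difference (log2 fold change 3.27, SE 0.61, FDR = 0.00445, edgeR). Vcl, the plaque protein vinculin, had 619, 364 and 297 CPM against 121, 125 and 58.6 CPM, 4.20-fold higher (log2 fold change 2.07, SE 0.40, FDR = 0.00526, edgeR). The other 5 genes had positive fold changes that did not pass. The cross-linker Actn1 had a log2 fold change of 1.65, the integrin activator talin (Tln1) 1.58, the plaque protein Pgm5 1.54 and the integrin subunit Itga8 1.49, and in all 4 each woodrat lay above each lab rat. Itga7, a laminin-binding integrin subunit of muscle, overlapped, with 222, 92.2 and 65.0 CPM against 47.9, 67.0 and 94.6 CPM (log2 fold change 0.86, SE 0.47, FDR = 0.174, edgeR).

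In the 5 LIM and PDZ-LIM scaffold genes, whose proteins organize actin and alpha-actinin, Pdlim3 and Ldb3 passed. Pdlim3 had 823, 505 and 384 CPM in the woodrats against 88.2, 145 and 160.3 CPM in the lab rats, 4.35-fold higher (log2 fold change 2.12, SE 0.38, FDR = 0.00384, edgeR). Ldb3 had 27.5, 15.8 and 20.3 CPM against 5.58, 8.60 and 4.62 CPM (log2 fold change 1.75, SE 0.36, FDR = 0.00630, edgeR). Csrp1 (ENSMUSG00000026421.13), which encodes a LIM protein abundant in smooth muscle, had 3418, 1891 and 1303 CPM against 527, 837 and 848 CPM. Its groups did not overlap, but its log2 fold change of 1.58 (SE 0.44) had an FDR of 0.0213 (edgeR). Pdlim7 had a log2 fold change of 1.55 (SE 0.46, FDR = 0.0278, edgeR) and Csrp2, in which lab rat 3 reached the lowest woodrat, 1.08 (SE 0.36, FDR = 0.0435, edgeR).

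The pore-forming subunits of both membrane channels were higher in woodrats, and their accessory subunits did not pass. Cacna1c, the pore of the L-type calcium channel that lets in calcium when the cell depolarizes, had 58.0, 55.2 and 25.0 CPM in the woodrats against 7.07, 7.94 and 5.39 CPM in the lab rats. It was 6.73-fold higher (log2 fold change 2.75, SE 0.38, FDR = 0.00151, edgeR). Kcnma1, the pore of the large-conductance potassium channel that repolarizes the cell, had 187, 191 and 95.4 CPM against 29.2, 42.2 and 19.8 CPM, 5.18-fold higher (log2 fold change 2.37, SE 0.38, FDR = 0.00251, edgeR). The accessory subunit Kcnmb1 had 112, 52.6 and 52.2 CPM against 17.1, 32.6 and 18.3 CPM (log2 fold change 1.67, SE 0.40, FDR = 0.0119, edgeR). The calcium channel's Cacnb2 had 27.7, 26.8 and 11.8 CPM against 9.80, 8.27 and 7.13 CPM (log2 fold change 1.39, SE 0.38, FDR = 0.0205, edgeR). In all 4 channel genes the woodrats lay above the lab rats, and the difference between pore and accessory subunits was not tested.

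The 4 calcium store genes were the most divided role, with the largest and the lowest fold change of all 45 members. Ryr2 (ENSMUSG00000021313.14), a ryanodine receptor that releases calcium from the sarcoplasmic reticulum, had 26.8, 18.5 and 12.3 CPM in the woodrats against 0.869, 0.496 and 0.385 CPM in the lab rats, from 137, 133 and 104 reads against 7, 3 and 2 reads. The fitted difference was 30.5-fold (log2 fold change 4.93, SE 0.49, FDR = 0.00052, edgeR), and its size is loosely held because so few reads lie behind the lab rat level. The other 3 genes overlapped between the species. Itpr1 (ENSMUSG00000030102.9), the inositol trisphosphate receptor that releases calcium after muscarinic stimulation, had 80.9, 97.6 and 124 CPM against 151, 152 and 65.5 CPM (log2 fold change −0.28, SE 0.35, FDR = 0.549, edgeR). Atp2a2, the pump SERCA2 that refills the store, had 109, 126 and 177 CPM against 148, 138 and 90.1 CPM (log2 fold change 0.13, SE 0.29, FDR = 0.752, edgeR). In both genes woodrat 3 was the highest woodrat and lab rat 3 the lowest lab rat. Pln, which encodes phospholamban, the inhibitor of that pump, had 42.8, 15.4 and 19.4 CPM against 10.9, 18.4 and 26.6 CPM (log2 fold change 0.47, SE 0.46, FDR = 0.439, edgeR). The sign of Pln and Atp2a2 was not stable: without woodrat 1 the Pln log2 fold change was −0.088, and the Atp2a2 log2 fold change was −0.099 without woodrat 3 and −0.061 without lab rat 3. With 1 animal left out, Itpr1 stayed negative, from −0.58 (without lab rat 3) to −0.10. Summed over the 4 genes, woodrats had 257 to 333 CPM and lab rats 183 to 311 CPM, and this was the 1 role of 10 in which the sums overlapped.

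**Figure D2:**
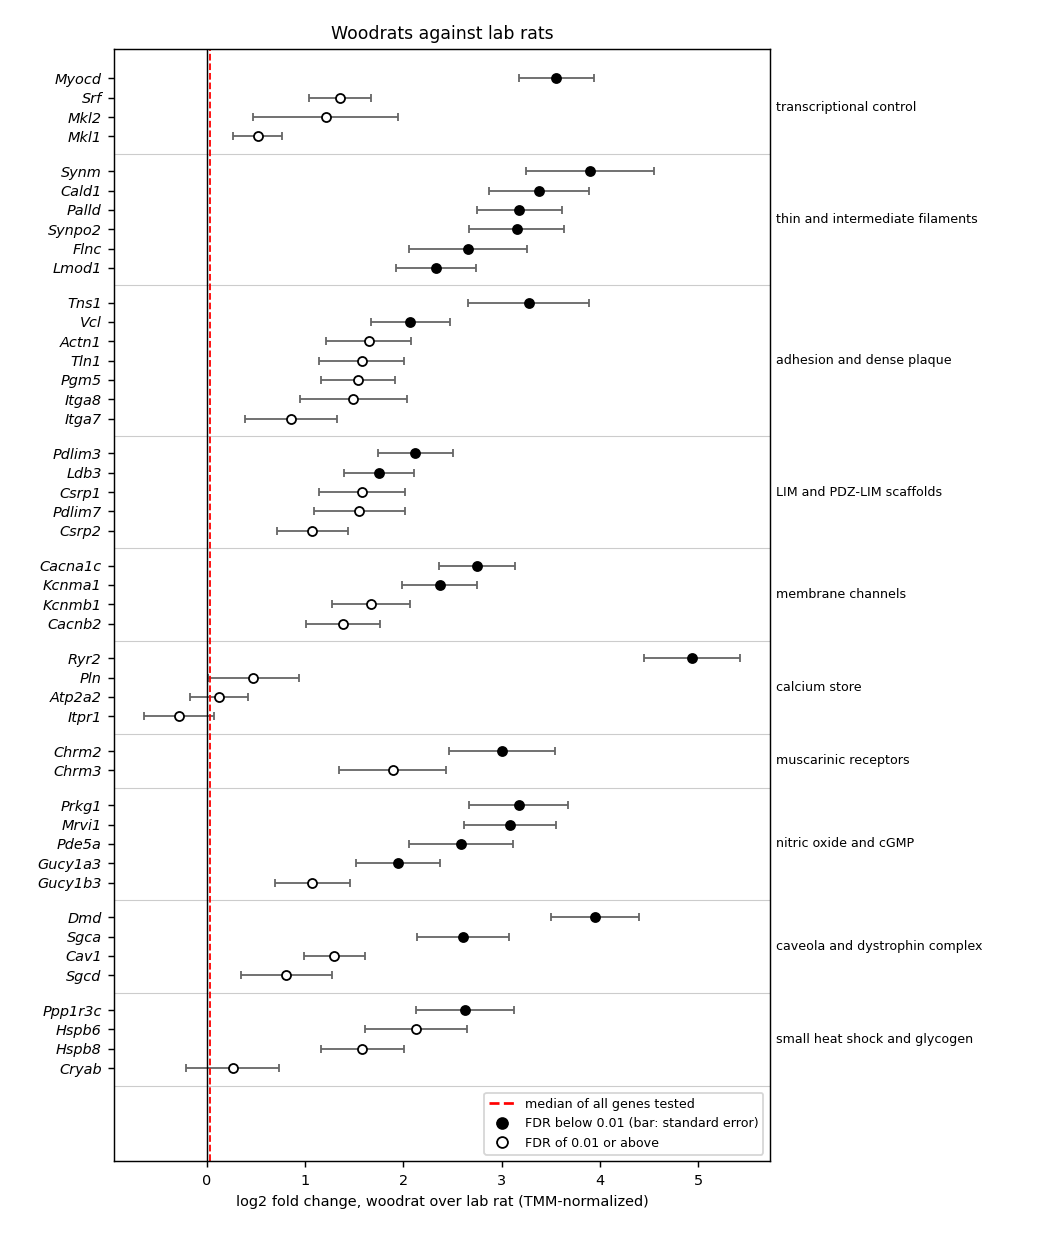
Log2 fold change of each member, woodrat over lab rat, from the edgeR fit with TMM normalization; bars are standard errors, filled points have an FDR below 0.01, the solid line marks 0 and the dashed line the median of all genes tested, 0.030. The 6 filament genes are all filled, and in the calcium store Ryr2 stands at 4.93 while Pln, Atp2a2 and Itpr1 lie within 0.5 of the solid line.

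Both muscarinic receptors had positive fold changes, and Chrm2 passed. Chrm2, the M2 receptor, had 71.9, 53.2 and 36.5 CPM in the woodrats against 6.58, 11.2 and 2.12 CPM in the lab rats, an 8.01-fold difference (log2 fold change 3.00, SE 0.54, FDR = 0.00371, edgeR). Chrm3, the M3 receptor that couples to calcium release in gut muscle, had 35.0, 35.7 and 9.95 CPM against 9.18, 8.60 and 3.66 CPM. Its lowest woodrat lay close above the highest lab rat (log2 fold change 1.89, SE 0.54, FDR = 0.0241, edgeR).

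In the nitric oxide and cGMP role 4 of 5 genes were higher in woodrats. These genes act in sequence: nitric oxide activates soluble guanylate cyclase (Gucy1a3 and Gucy1b3), the cGMP it makes activates the kinase Prkg1, and Pde5a degrades cGMP. Gucy1a3 had 13.9, 18.3 and 15.3 CPM in the woodrats against 4.84, 5.62 and 1.73 CPM in the lab rats (log2 fold change 1.94, SE 0.43, FDR = 0.00853, edgeR). The partner subunit Gucy1b3 did not pass, with 16.8, 18.3 and 11.3 CPM against 6.70, 10.6 and 4.62 CPM (log2 fold change 1.07, SE 0.38, FDR = 0.0511, edgeR). Downstream of the cyclase, Prkg1 had 22.7, 23.5 and 14.9 CPM against 1.12, 4.14 and 1.54 CPM, 9.0-fold higher (log2 fold change 3.17, SE 0.50, FDR = 0.00244, edgeR). Mrvi1, which encodes a substrate of this kinase at the inositol trisphosphate receptor (IRAG), had 312, 271 and 146 CPM against 26.9, 44.2 and 14.6 CPM, 8.48-fold higher (log2 fold change 3.08, SE 0.46, FDR = 0.00198, edgeR). Pde5a had 157, 195 and 114 CPM against 26.9, 42.3 and 8.09 CPM, 6.0-fold higher (log2 fold change 2.58, SE 0.53, FDR = 0.00639, edgeR). The kinase that acts on relaxation and the enzyme that removes its activator were thus both higher in woodrats. Mrvi1 was higher while the receptor its protein binds, Itpr1, overlapped between the species.

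Of the 4 caveola and dystrophin genes, Dmd and Sgca passed. Dmd (ENSMUSG00000045103.16), dystrophin itself, had 223, 230.4 and 120.0 CPM in the woodrats against 11.3, 19.0 and 6.74 CPM in the lab rats. It was 15.4-fold higher (log2 fold change 3.95, SE 0.45, FDR = 0.000782, edgeR), second to Ryr2 among the members. Sgca, a sarcoglycan best known from striated muscle, had 78.5, 24.7 and 35.3 CPM against 6.95, 5.79 and 10.02 CPM (log2 fold change 2.60, SE 0.47, FDR = 0.00387, edgeR). Sgcd, the sarcoglycan of smooth and striated muscle, overlapped, with 5.08, 9.58 and 3.55 CPM against 2.48, 4.47 and 3.47 CPM (log2 fold change 0.81, SE 0.47, FDR = 0.196, edgeR). Cav1, the main coat protein of caveolae and common to many cell types, had 225, 193 and 147 CPM against 73.3, 104 and 52.2 CPM (log2 fold change 1.30, SE 0.31, FDR = 0.0125, edgeR).

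In the small heat shock and glycogen role 1 of 4 genes passed. Ppp1r3c, a subunit that directs protein phosphatase to glycogen, had 79.7, 37.1 and 21.2 CPM in the woodrats against 5.58, 9.43 and 7.32 CPM in the lab rats, 6.16-fold higher (log2 fold change 2.62, SE 0.50, FDR = 0.00465, edgeR). Hspb6, a small heat shock protein phosphorylated during smooth muscle relaxation, had 595, 155 and 187 CPM against 55.2, 85.02 and 73.8 CPM (log2 fold change 2.13, SE 0.52, FDR = 0.0129, edgeR). Hspb8 had 323, 122 and 122 CPM against 55.3, 80.9 and 53.2 CPM (log2 fold change 1.58, SE 0.42, FDR = 0.0188, edgeR). Woodrat 1 stood well above the other woodrats in both genes, at 3.48 times their mean in Hspb6. Cryab (ENSMUSG00000032060.9), the chaperone alpha-B crystallin, overlapped, with 348, 197 and 108 CPM against 116, 147 and 280.1 CPM (log2 fold change 0.27, SE 0.47, FDR = 0.682, edgeR). Without woodrat 1 the Cryab log2 fold change was −0.25.

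How the members moved was then set against Myh11 (ENSMUSG00000018830.8), the smooth muscle myosin heavy chain. Myh11 had 33317, 18451 and 12073 CPM in the woodrats against 2826, 4457 and 4532 CPM in the lab rats; its log2 fold change was 2.43 (SE 0.56), with an FDR of 0.0102 (edgeR). The same edgeR model was fitted with the Myh11 count of each library in place of its size, so that a gene with a log2 fold change of 0 differed by as much as Myh11 did. On this scale the median over all genes was −2.22, and 58.5% of all genes were lower and 0.960% higher in woodrats. The median over the members was −0.55, with 16 positive and 29 negative, where 6.45% of all genes were positive. Members within 0.5 of Myh11 on this log2 scale numbered 11. At an FDR below 0.01, 1 member, Ryr2, was higher per Myh11 read (log2 fold change 2.49, SE 0.75, FDR = 0.00546, edgeR). Ryr2 had 7, 3 and 2 reads in the lab rats and had entered the test through its woodrat values. It kept this call in 3 of the 6 fits with 1 animal left out. The 4 members that were lower were Itpr1 (−2.50, SE 0.65, FDR = 0.00194, edgeR), Cryab (−2.18, SE 0.55, FDR = 0.00170, edgeR), Atp2a2 (−2.06, SE 0.62, FDR = 0.00582, edgeR) and Pln (−1.89, SE 0.60, FDR = 0.00800, edgeR). The numbers called higher and lower per Myh11 read were 3 and 5 without woodrat 1, 0 and 0 without woodrat 2, 1 and 6 without woodrat 3, 1 and 1 without lab rat 1, 0 and 2 without lab rat 2, and 0 and 2 without lab rat 3. Of all 12603 genes, 7409, 4413, 9244, 5565, 5856 and 7394 were called in either direction in these fits, in the same order. The shares called higher were 1.68%, 0.698%, 0.897%, 0.92%, 0.436% and 0.667%. The geometric mean of the contractile genes, without Smtnl1, was also used in place of Myh11. The numbers called higher and lower were then 3 and 1 (Dmd and Synm joined Ryr2, and Itpr1 stayed). The median log2 fold change of the members was then −0.057.

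Reads per 1000 Myh11 reads show the same values animal by animal. For Itpr1 they were 2.43, 5.29 and 10.3 in woodrats and 53.4, 34.0 and 14.5 in lab rats, and for Atp2a2 3.26, 6.82 and 14.7 against 52.4, 31.0 and 19.9. The animals of each species varied widely in these genes, but every lab rat lay above every woodrat. Csrp1 gave the steadiest ratio of the 45 members, a description chosen after the values were seen, with 103, 103 and 108 in woodrats and 186, 188 and 187 in lab rats. The highest Csrp1 ratio was 1.05 times the lowest in woodrats and 1.008 times in lab rats, and Csrp1 was nevertheless not called per Myh11 read (log2 fold change −0.84, FDR = 0.129, edgeR). The test moderates the spread of each gene toward that of other genes. Cald1 had 102, 113 and 114 against 72.4, 73.2 and 28.1, Synpo2 had 83.2, 104 and 98.5 against 63.5, 75.6 and 32.0, and Synm had 103, 109 and 90.4 against 46.3, 55.9 and 12.7. In these filament genes lab rat 3 was low while the other lab rats were close to each other. Dmd had 6.70, 12.5 and 9.94 against 3.996, 4.27 and 1.49 and did not pass at 0.01 (log2 fold change 1.58, SE 0.59, FDR = 0.0208, edgeR). In all, the ratio was higher in every woodrat than in every lab rat for 7 members (Myocd, Cald1, Synpo2, Synm, Palld, Ryr2 and Dmd), where 2.08% of all genes were, and higher in every lab rat for 16, where 73.8% of all genes were. For Myocd this separation was marginal, with 1.102, 1.96 and 2.82 against 1.098, 0.965 and 0.340, the latter from 25, 26 and 8 reads. Myocd was not called on this scale (log2 fold change 1.29, SE 0.66, FDR = 0.0800, edgeR).

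**Figure D3:**
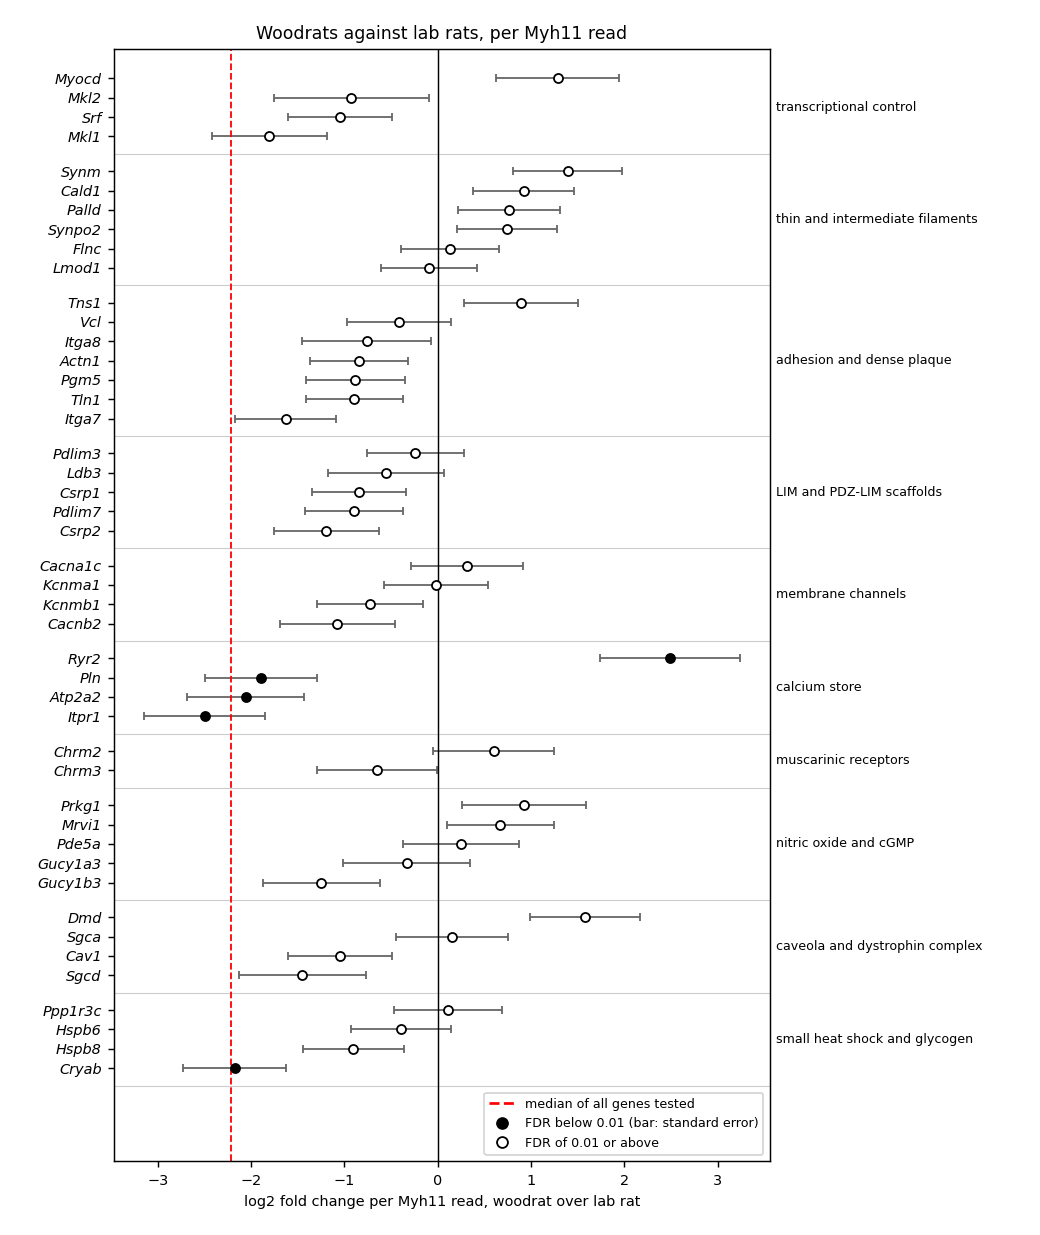
Log2 fold change of each member per Myh11 read, woodrat over lab rat, with standard errors; filled points have an FDR below 0.01, the solid line at 0 is the change of Myh11 itself and the dashed line the median of all genes tested, −2.22. Ryr2 is the filled point to the right at 2.49, and the filled points to the left, Pln, Atp2a2, Itpr1 and Cryab, lie near the dashed line. The Ryr2 point rests on 7, 3 and 2 lab rat reads.

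Within each species the animals differed in Myh11 as well, by 2.76-fold from the lowest to the highest woodrat and by 1.60-fold among lab rats. No correlation with Myh11 was computed, since the species formed separate clusters of 3 animals, and the order of the animals was counted instead. In woodrats 27 of 45 members had the order of Myh11, highest in woodrat 1 and lowest in woodrat 3, an order shared by 25.5% of the 12602 other genes. Woodrat 1 was the highest for 32 members, where it was for 37.6% of the other genes. Woodrat 3 was the lowest for 36 members, where it was for 37.9% of the other genes. Against the mean of the other woodrats, woodrat 1 was above for 39 members, with a median of 1.65-fold, where 47.6% of all genes were above. Flnc at 3.54-fold, Hspb6 at 3.48-fold and Itga7 at 2.83-fold were the furthest above. Mkl2 at 0.446-fold, Itga8 at 0.663-fold, Atp2a2 at 0.717-fold and Itpr1 at 0.729-fold were the furthest below. Of the calcium store genes that overlapped between the species, Itpr1 and Atp2a2 thus ran opposite to Myh11 among woodrats, while Pln was highest in woodrat 1, at 2.46 times the mean of the other woodrats.

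Lab rats did not repeat this pattern. The order of Myh11, highest in lab rat 3 and lowest in lab rat 1, was found in 9 of 45 members and in 21.2% of the other genes. Lab rat 3 was the highest lab rat for 10 members, where it was for 40.5% of the other genes. It was instead the lowest for 28 members, a count for which the share of all genes was not taken. It lay below the mean of the other lab rats for 33, with a median of 0.630-fold, where 46.3% of all genes lay above. Myh11 nevertheless stood at 1.24 times that mean. Mkl2 at 0.0772-fold, Pde5a at 0.234-fold, Chrm2 at 0.238-fold, Tns1 at 0.239-fold, Itga8 at 0.301-fold and Synm at 0.302-fold were the lowest, and 14 members lay more than 1 log2 unit below, where 18.2% of all genes did. Cryab at 2.13-fold, Csrp2 at 2.12-fold, Pln at 1.82-fold and Flnc at 1.70-fold lay above. Without lab rat 3 the Tns1 log2 fold change was 2.85 (FDR = 0.00920, edgeR), the Chrm2 log2 fold change 2.60 (FDR = 0.00831, edgeR) and the Pde5a log2 fold change 2.17 (FDR = 0.00831, edgeR), and the Synm log2 fold change of 3.52 no longer passed (FDR = 0.0114, edgeR). The part that the state of its RNA had in these values was not tested.

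**Figure D4:**
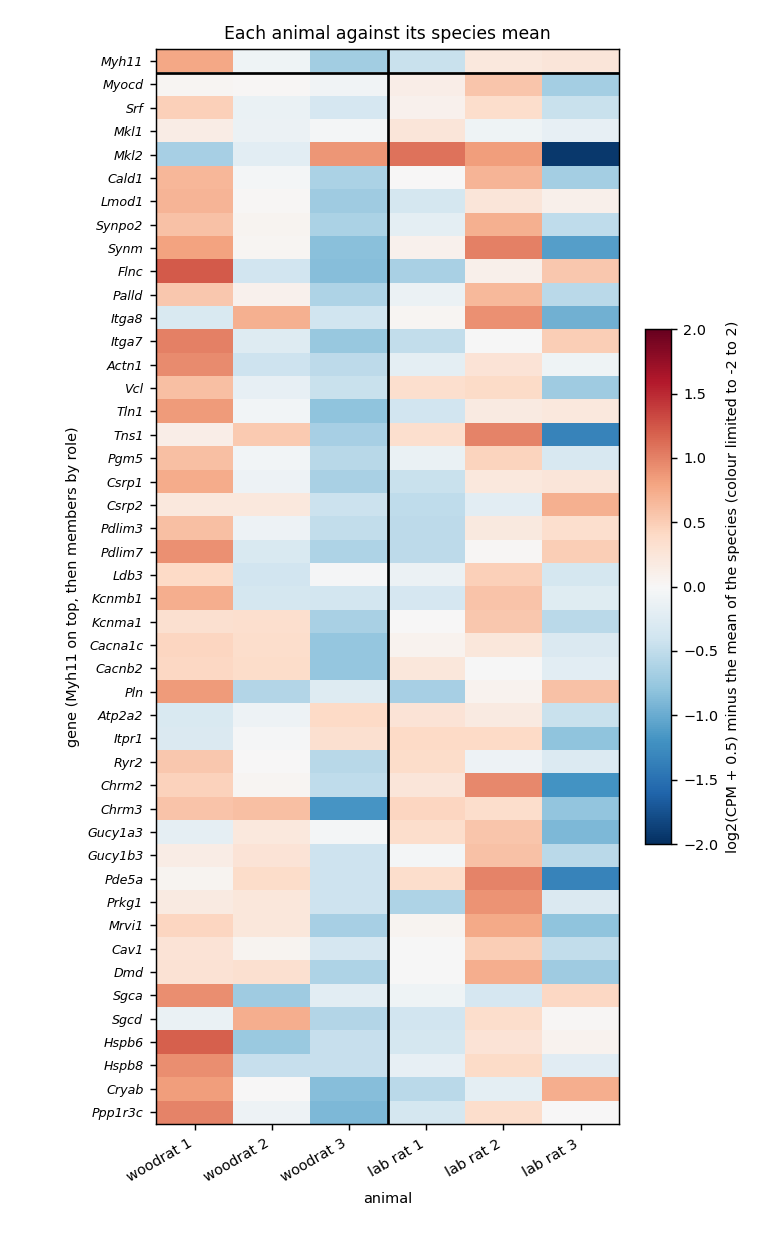
Log2(CPM + 0.5) of each animal minus the mean of its species, for Myh11 in the top row and the 45 members below it in the order of their roles; red is above and blue below the mean, and colours are limited to −2 to 2. Woodrat 1 is red in most rows as it is for Myh11, and lab rat 3 is blue in most rows although its Myh11 is not.

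Other genes of smooth muscle were read from lists by role, beside the 10.3% of all genes called higher and the 9.71% called lower. Of the 11 contractile genes tested, 2 passed, all 11 fold changes were positive, and the median log2 fold change was 1.79, or 1.75 without Smtnl1. Mylk, the kinase that starts contraction by phosphorylating myosin, passed beside Smtnl1, with a log2 fold change of 3.03. Smtnl1 had 0, 0 and 1 reads in the lab rats and entered the test through its woodrat values. All 11 were highest in woodrat 1, and 1 to 5 passed with 1 animal left out. Among related transcription factors 6 of 13 were higher and 0 lower, among them Mef2c (log2 fold change 2.81, SE 0.46, FDR = 0.00270, edgeR) and Mef2a (2.39, SE 0.46, FDR = 0.00472, edgeR), which encode factors that activate muscle genes. Prdm6 went the other way without passing (log2 fold change −1.501, FDR = 0.0118, edgeR), with every lab rat above every woodrat. Of 23 further adhesion genes 6 were higher and 0 lower. Itga1, the collagen-binding integrin subunit of smooth muscle, had 187 ± 57.0 CPM in the woodrats against 4.55 ± 2.67 CPM in the lab rats (SD, n = 3 each; log2 fold change 5.36, SE 0.48, FDR = 0.000323, edgeR), a larger fold change than any of the 7 adhesion members. Of 22 further channel and calcium genes 2 were higher and 0 lower, the plasma membrane calcium pump Atp2b1 (2.04, SE 0.33, FDR = 0.00261, edgeR) and the potassium channel Kcnj8 (1.36, SE 0.25, FDR = 0.00418, edgeR). That count is near the share of all genes, and 4 genes of the list had every lab rat above every woodrat, among them the inositol trisphosphate receptors Itpr2 (−1.40, FDR = 0.0796, edgeR) and Itpr3 (−1.37, FDR = 0.101, edgeR). Of 11 further cGMP and receptor genes 2 were higher and 0 lower, the phosphodiesterases Pde4d (3.22) and Pde3a (2.84). Of 15 further caveola and dystrophin genes 6 were higher and 0 lower, among them Sntb2 (2.99), Cav3 (2.82) and Dtna (2.24), whose proteins are a syntrophin, the muscle caveolin and a dystrobrevin. Few lab rat reads lay behind some of these fold changes, which are loosely held. They were 8, 11 and 3 for Pde4d, 29, 21 and 2 for Pde3a and 9, 8 and 3 for Sntb2. Cav3 had 9, 16 and 17 and Mef2c 27, 19 and 6. Of 8 further small heat shock and glycogen genes 2 were higher and 0 lower, Hspb7 (1.47) and the glycogen synthase Gys1 (1.25). With 1 animal left out the calls of higher abundance numbered 0 to 5 in the transcription factors, 2 to 8 in adhesion, 0 to 5 in the channels, 0 to 2 in the cGMP and receptor genes, 1 to 6 in the caveola genes and 0 to 1 in the small heat shock genes. Without woodrat 1 they were 4, 4, 1, 2, 5 and 0, and without lab rat 3 they were 3, 2, 2, 1, 3 and 0, in the same order. Of all genes, 7.81% were called higher without woodrat 1 and 5.09% without lab rat 3. Itga1 passed in all 6 fits, Kcnj8, Cav3 and Hspb7 in 1 and Gys1 in 0.

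Many members are also used by other cells, so markers of these cells were read beside them. Summed CPM of 6 pericyte markers was 412 to 777 in woodrats and 170 to 252 in lab rats, with 3 of 6 called higher, including Rgs5 (log2 fold change 2.45), and 2 without woodrat 1 and 0 without lab rat 3. Of the 6, 1 went the other way without passing (log2 fold change −0.86). Kcnj8, 1 of the 3 called, and Abcc9 were also on the list of further channel and calcium genes. Summed CPM of 17 striated muscle markers was 448 to 871 against 191 to 266. Most of the sum came from Ckm, Actn2 and Actn3. They had 330, 378 and 125 of the 871 CPM in woodrat 1 and 36.4, 84.2 and 40.4 of the 266 CPM in lab rat 3. The 9 markers that could be tested were divided. Ckm (3.11) and Tnni2 (3.13) were higher and Tnnt2 (−3.56) was lower, and at an FDR below 0.05 the counts were 4 and 4, with Tnnc2 (−3.72), Myh4 (−3.13) and Tnnt3 (−2.06) among the lower. Tnnc2 had 1, 4 and 5 reads in the woodrats and Myh4 had 1, 0 and 4. Both stayed under 1 CPM in every woodrat and entered the test through their lab rat values. With 1 animal left out, 1 to 2 striated muscle markers were called higher and 0 to 2 lower. Actn2 was abundant, with 162 to 378 CPM in the woodrats against 84.2 to 134 CPM, while Ttn had 2, 6 and 10 reads in the woodrats and 0, 0 and 1 in the lab rats. Striated muscle also uses Ryr2, Ldb3, Sgca, Dmd and Flnc. Enteric neuron and glia markers summed to 39.0 to 54.1 CPM against 30.05 to 37.7 CPM. Of the 9 tested, 1 was called higher, or 0 to 1 with 1 animal left out, and 1 was lower at an FDR below 0.05. Endothelial markers, relevant to Cav1, summed to 59.6 to 109 CPM against 143 to 147 CPM, with 2 of 8 called lower (Tie1 and Egfl7) and 4 of 8 overlapping. Summed over 8 genes, leukocyte markers had 8.01 to 22.1 CPM against 35.1 to 70.2 CPM, with 3 of the 5 tested called lower. With 1 animal left out, 0 to 3 leukocyte and 1 to 2 endothelial markers were called lower. Over all genes 9.71% were called lower. Fibroblast markers, with 1489 to 3164 CPM against 2472 to 3053 CPM, and interstitial cell of Cajal markers, with 10.4 to 67.6 CPM against 16.4 to 34.2 CPM, overlapped between the species. Of 9 fibroblast markers 1 was called lower, or 0 to 1 with 1 animal left out. The part of these cell types in the members' differences was not tested.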

How the data were processed

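The authors deposited 1 table of raw counts per animal. Per their methods, stranded poly(A) libraries were trimmed with Trimmomatic, read pairs were merged with FLASH, and reads were aligned to mouse coding transcripts with cross_match and counted for the mouse gene with the best score, leaving out listed genes with ambiguous matches. Woodrat and rat reads were thus counted against mouse sequence, and the effect of each species' divergence from mouse on a gene was not tested. Genes that reached 1 CPM in 3 or more of the 6 libraries were fitted with edgeR 4.0.16 (R 4.3.3; TMM, quasi-likelihood F-test, species as the only term, prior count 0.125) and adjusted over all 12603 genes; standard errors are the log2 fold change divided by the square root of F. A second fit used the Myh11 count as library size. Total counts were 5439642 to 7932637 per animal. Alternatives used DESeq2 1.42.0, other scalings, filters and thresholds, a replicate block, and each animal left out. Scripts were tested on simulated data. Each library is a separate animal by its labels, and pairs of libraries of a species differed by more than counting noise. The members and lists, and the rule for naming (every member; of each related list the called genes with the largest fold change, at most 4), were chosen with earlier results of these data known. Acta2 and Actg2 of the contractile list were not found in the files and are not analysed here.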

Additional observations from a re-analysis of the deposited data

How the results depend on the processing

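The number of members called higher in woodrats was 22 in the reported fit. It was 35 at an FDR below 0.05, 34 with DESeq2 (all 22 kept), 14 with a replicate block, and 7 to 32 when 1 animal was left out, while 42 to 44 members stayed positive and 0 were called lower in each. Filters, other size factors and edgeR's newer quasi-likelihood method gave 16 to 25. Over all genes, 2516 calls became 5026 at an FDR below 0.05, 3916 with DESeq2, 716 with the replicate block and 898 to 2626 with 1 animal left out. Same-numbered animals did not deviate together (correlations −0.30, −0.094 and −0.29), so the block pairs animals that share only a number. Per Myh11 read, the count of members higher, 1, became 3 at an FDR below 0.05, 3 with the contractile genes as reference, 2 with DESeq2, 0 with the replicate block and 0 to 3 with 1 animal left out. The count lower, 4, became 6 at an FDR below 0.05, 1 with the contractile reference, 6 with edgeR's newer method, 6 with DESeq2, 0 with the block and 0 to 6 with 1 animal left out. At an unadjusted p below 0.05 the block gave 2 higher and 4 lower. Over all genes, 7496 calls per Myh11 read became 4029 with the block and 4413 to 9244 with 1 animal left out. The median log2 fold change of the members per Myh11 read, −0.55, became −0.057 with the contractile reference. Per Myh11 read it ran from −0.75 to −0.28 with 1 animal left out. With 1 animal left out the Pln log2 fold change ran from −0.088 (without woodrat 1) to 0.82, the Cryab log2 fold change from −0.25 (without woodrat 1) to 0.73 and the Atp2a2 log2 fold change from −0.099 (without woodrat 3; −0.061 without lab rat 3) to 0.27. The cause of these shifts was not tested. Among the members, depth limits Ryr2, Mkl2, Myocd, Prkg1 and Gucy1a3, which had under 10 reads in a library.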
